A study of Mus musculus with 2 samples.

Results

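The genes described here are the receptors of Wnt signals, the secreted proteins that strengthen or block those signals, and the enzymes and carriers that set how much receptor or ligand a cell holds. The list was drawn up by name and by known role, with earlier results of these data known: 10 Frizzled receptors, the co-receptors *Lrp5* and *Lrp6*, the alternative receptors *Ror1*, *Ror2* and *Ryk*, 4 R-spondins, 6 inhibitors that bind Wnt proteins, 4 Dickkopf inhibitors with *Kremen1* and *Kremen2*, the ubiquitin ligases *Znrf3* and *Rnf43*, and the Wnt carrier *Wls*. All 34 genes were found among the 49492 in the table. Each is named with the symbol that the table gives.

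RNA of sorted mammary basal cells was sequenced from 2 groups of wild-type female mice, 8 to 10 weeks old, both labelled day 7, to ask what the loss of macrophages does to basal cells. The CL basal mice had received clodronate liposomes, which kill the macrophages that ingest them, by repeated intraperitoneal injection. The Ctrl basal mice are labelled as having no treatment, and the study's description says saline. Each group was a single library, and how many animals went into a library is not given in the sources used here. Basal cells were gated as CD24+ and CD29 high after removal of CD45+, CD31+ and TER119+ cells. With 1 library per group, nothing below has a replicate check: every ratio compares these 2 libraries, and each interval covers counting error only.

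A Wnt protein binds a Frizzled receptor together with Lrp5 or Lrp6, which stabilises beta-catenin in the cell and turns on target genes through TCF and LEF factors. R-spondins lengthen the life of the receptors by drawing away ZNRF3 and RNF43, which otherwise mark Frizzled for destruction. In the mammary gland this pathway is known for keeping stem cells in the basal layer, and its ligands and inhibitors come from epithelial and stromal cells alike.

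The libraries held 37846008 counts for Ctrl basal and 38962512 for CL basal. The basal label was checked first. Basal keratin *Krt14* had 210758 counts in Ctrl basal and 232845 in CL basal, and *Krt5* had 47049 and 40295. Markers of other cells were present as well. Luminal *Krt8* had 86539 and 53150 counts, the endothelial gene *Pecam1*, which encodes the CD31 used to gate cells out, had 5503 and 4266, fibroblast *Col1a1* had 1713 and 1346, and pericyte *Rgs5* had 2281 and 1635. The macrophage gene *Adgre1* had only 7 and 10 counts, and the adipocyte gene *Adipoq* 5 and 10. By the rule given below, which called 6.82% of all tested genes lower, 17 of 20 luminal markers were lower in CL basal (summed counts 234897 in Ctrl basal and 138578 in CL basal), as were 4 of 12 fibroblast markers (12324 and 9819), 4 of 7 tested pericyte markers (13956 and 13590), 1 of 10 endothelial markers (18868 and 15482), 2 of 9 tested macrophage markers (2209 and 1860), 1 of 4 tested adipocyte markers (595 and 600) and 1 of 5 Schwann cell markers (6760 and 6595). *Mcam* held 69.3% of the pericyte sum over both libraries, with 8887 and 10212 counts (log2 ratio 0.20). The other 6 tested pericyte markers had intervals below equality. With an assumed variation of 0.2 between animals, 14 luminal markers were still lower, 1 each of the fibroblast, macrophage and Schwann cell markers, and 0 of the pericyte, endothelial and adipocyte markers. None of these lists had a marker that was higher by the 1.5-fold rule, and none of 10 basal markers (758644 and 796674) or 8 tested lymphoid markers (244 and 236) was called either way. No marker in any list was at 0 in both libraries. In such bulk samples, fewer cells of a type and less RNA per cell cannot be told apart, and the part of other cells in the ratios below was not tested.

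A gene was tested if it had at least 20 counts over both libraries, and it is called higher or lower here if its scaled ratio was at least 1.5-fold and its 95% interval left out equality. Of the 34 genes, 29 had enough counts. *Dkk2*, *Rspo3* and *Ror2* were called lower in CL basal and *Kremen2* was called higher. Among all 17356 tested genes, 6.82% were lower and 3.01% higher by the same rule, so 3 and 1 of 29 is near that background, and no shift of the whole group can be read from the calls. At a threshold of 2-fold, *Dkk2* and *Kremen2* were called, against 3.36% lower and 1.31% higher among all genes. The same genes, *Dkk2* and *Kremen2*, were called when an assumed coefficient of variation of 0.2 between animals was added to the interval, against 2.91% lower and 1.03% higher; these libraries cannot give the true spread. The 29 genes had a median log2 ratio of 0.12, and all tested genes a median of -0.01. Ratios lay above equality for 17 of the 29 genes and below it for 12, against 8379 and 8977 of all 17356 tested genes.

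Promoter sequence is shown for the called genes that had an entry and for *Fzd7*, the Frizzled with the highest level, as context for the values that follow. Each line gives the 250 bases upstream of the start in the RefSeq promoter set (GRCm38.p6), 5' to 3' on the strand of the gene. Capitals mark a TCF/LEF word (CTTTG followed by a pair of letters that are each A or T, on either strand) or TATAAA on the gene's strand; the motifs may share letters.
*Dkk2*, chr3:132085042-132085291, plus strand: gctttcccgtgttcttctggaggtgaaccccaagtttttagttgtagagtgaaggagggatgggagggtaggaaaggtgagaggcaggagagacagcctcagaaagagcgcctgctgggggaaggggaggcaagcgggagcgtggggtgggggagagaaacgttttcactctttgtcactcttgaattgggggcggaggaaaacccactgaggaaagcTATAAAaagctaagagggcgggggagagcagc
*Ror2*, chr13:53286125-53286374, minus strand: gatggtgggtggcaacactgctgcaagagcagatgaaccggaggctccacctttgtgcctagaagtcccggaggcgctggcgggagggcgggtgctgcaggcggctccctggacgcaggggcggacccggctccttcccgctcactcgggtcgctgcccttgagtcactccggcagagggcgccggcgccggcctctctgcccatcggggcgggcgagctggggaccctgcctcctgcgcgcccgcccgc
*Kremen2*, chr17:23745830-23746079, minus strand: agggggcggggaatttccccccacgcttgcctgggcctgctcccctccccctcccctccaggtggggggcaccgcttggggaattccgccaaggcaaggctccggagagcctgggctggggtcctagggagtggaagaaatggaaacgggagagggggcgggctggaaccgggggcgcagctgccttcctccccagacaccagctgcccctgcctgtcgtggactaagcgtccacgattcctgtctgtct
*Fzd7*, chr1:59481897-59482146, plus strand: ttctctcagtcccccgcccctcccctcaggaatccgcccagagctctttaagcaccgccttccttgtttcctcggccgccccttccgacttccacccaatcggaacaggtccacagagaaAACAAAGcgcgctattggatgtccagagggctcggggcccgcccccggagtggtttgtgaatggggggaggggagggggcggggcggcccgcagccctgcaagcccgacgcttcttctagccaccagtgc
The *Dkk2* window held TATAAA, beginning 32 bases upstream of the start, and 7 CG dinucleotides. The *Ror2* window held neither motif and 24 CG dinucleotides, and the *Kremen2* window held neither and 12. In *Fzd7* a TCF/LEF word on the reverse strand began 130 bases upstream, and the RefSeq start of this gene lies upstream of the start in the table. Of the 34 genes, 20 had an entry, with 21 windows in all. A TCF/LEF word lay in 2 of the 21 windows, those of *Fzd7* and *Dkk1*, against 14.8% of all 32851 windows. TATAAA lay in 3 of 21, those of *Fzd1*, *Dkk1* and *Dkk2*, against 7.59% of all. The median of all windows was 6 CG dinucleotides. These matches describe letters in a window and say nothing of what binds there.

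**Figure D1:**
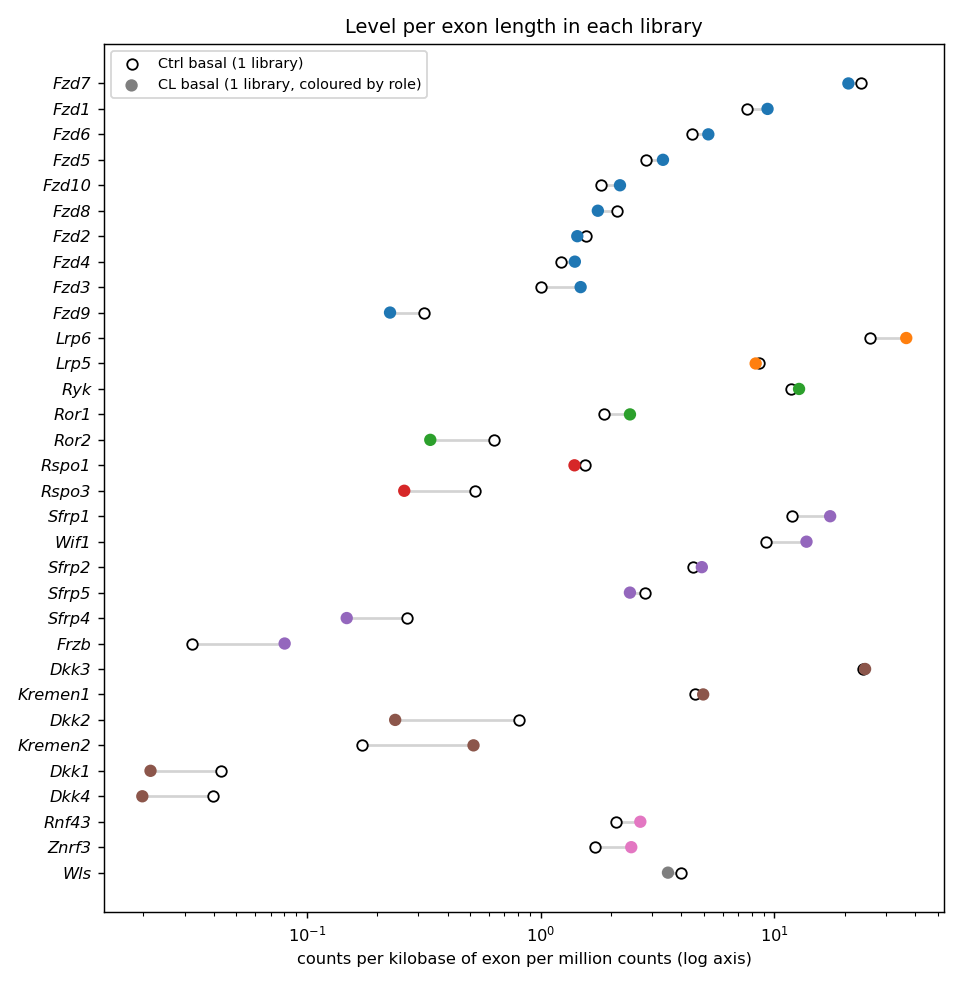
Level of each gene in RPKM (counts scaled to exon length and library size, log axis) in Ctrl basal (open circles) and CL basal (filled circles, coloured by role), 1 library each, ordered by mean level within each role; *Rspo2* and *Rspo4*, with no counts, are left out. *Lrp6*, *Dkk3* and *Fzd7* sit highest in both libraries, and the widest gaps among genes with at least 20 counts are those of *Dkk2* and *Kremen2*.

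Levels of different genes are compared per length only, as RPKM (counts scaled to exon length and to library size), with exact Poisson intervals. All 10 Frizzled genes, the seven-pass receptors that Wnt proteins contact, had at least 20 counts, and none was called. *Fzd7*, a Frizzled linked to stem cells in several epithelia (chromosome 1, 59482424 to 59486955, GRCm38), stood at 23.5 RPKM in Ctrl basal (22.5 to 24.5) and 20.7 in CL basal (19.8 to 21.7). *Fzd1* came next at 7.67 and 9.35 RPKM, followed by *Fzd6* at 4.42 and 5.22, then by *Fzd5* at 2.82 and 3.34. Each of these 4 levels was set apart from its neighbours in both libraries. Below them, *Fzd8*, *Fzd10*, *Fzd2*, *Fzd4* and *Fzd3* lay between 0.999 and 2.19 RPKM, and each interval met that of its neighbour in the order. *Fzd9* was lowest, at 0.318 and 0.227 RPKM on 28 and 20 counts.

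*Fzd7* had 4086 counts in Ctrl basal and 3611 in CL basal, a log2 ratio of -0.18 (-0.27 to -0.09). It was the only Frizzled whose interval lay wholly below equality. *Fzd1* (chromosome 5, 4753839 to 4758035) had 1235 and 1508 counts, a log2 ratio of 0.28 (0.13 to 0.44). The 2 most abundant Frizzled genes thus differed in sign: *Fzd7* was 3.06 times *Fzd1* per length in Ctrl basal and 2.22 times in CL basal, a difference of -0.47 on the log2 scale (-0.65 to -0.29), in which the scaling of the libraries cancels. *Fzd3*, a Frizzled best known from planar polarity (chromosome 14, 65201026 to 65262463), had 162 and 241 counts and the largest ratio of the family, 0.56 (0.15 to 0.99), just inside the 1.5-fold limit of 0.585 on the log2 scale. The intervals of *Fzd5* (748 and 887 counts, ratio 0.24, 0.04 to 0.44) and *Fzd6* (701 and 829 counts, ratio 0.24, 0.03 to 0.45) also lay above equality. *Fzd5* shares exonic bases with *Gm38058* on the other strand, which had 38 and 86 counts, so its value is uncertain to that extent.

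For the other 5 Frizzled genes the interval held equality. *Fzd4*, which also receives the signal norrin, had 316 and 362 counts (log2 ratio 0.19, -0.12 to 0.51). *Fzd10* had 225 and 273 counts (0.27, -0.10 to 0.65). No difference was detectable for either at this depth. *Fzd2* had 220 and 202 counts (-0.12, -0.53 to 0.28), and *Fzd8* had 272 and 226 (-0.27, -0.64 to 0.10). *Fzd9* was too thinly covered to bound, with a ratio of -0.45 (-1.82 to 0.79). Summed over the family, 7993 counts in Ctrl basal stood against 8159 in CL basal, a log2 ratio of 0.03 (-0.04 to 0.09). The total was level while its largest member was lower and 4 of the others were higher by their intervals. Among all 17356 tested genes, 3231 intervals lay above equality and 3018 below it. With the assumed variation of 0.2, every Frizzled interval held equality.

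The co-receptors behaved differently from each other. *Lrp6* (chromosome 6, 134446476 to 134566965) was the gene with the most counts of all 34, with 13480 in Ctrl basal and 19264 in CL basal. Its log2 ratio was 0.51 (0.47 to 0.56), a 1.43-fold difference that lay outside counting error and under the 1.5-fold limit. With the assumed variation of 0.2 the interval of *Lrp6* was -0.29 to 1.31, which holds equality. *Lrp5* (chromosome 19, 3584828 to 3686564) had 3206 and 3113 counts, a ratio of -0.05 (-0.15 to 0.06). *Lrp6* was 2.99 times *Lrp5* per length in Ctrl basal and 4.41 times in CL basal, a difference of 0.56 on the log2 scale (0.45 to 0.67). *Lrp6* made up 39.3% of the counts of the 34 genes over both libraries. The summed log2 ratio of the 34 genes (37837 and 45580 counts) was 0.27 with it and 0.11 without it.

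Among the alternative receptors, *Ror2* was called lower. *Ror1* and *Ror2* are receptor tyrosine kinases known as receptors of Wnt5a, and *Ryk* is a Wnt receptor with an inactive kinase domain. *Ror2* (chromosome 13, 53109312 to 53286124) had 103 counts in Ctrl basal and 55 in CL basal. Its log2 ratio was -0.88 (-1.63 to -0.21). The call of *Ror2* was lost at 2-fold and with an assumed variation of 0.2, where its interval was -1.935 to 0.143. *Ror1* (chromosome 4, 100095791 to 100444765) went the other way, with 414 and 534 counts and a ratio of 0.36 (0.10 to 0.63) that was not called. Per length, *Ror1* was 2.96 times *Ror2* in Ctrl basal and 7.15 times in CL basal, a difference of 1.27 on the log2 scale (0.56 to 1.99); this pair was picked after its values were seen. *Ryk*, with the highest level of the 3 at 11.8 and 12.8 RPKM, had 2045 and 2223 counts and a ratio of 0.12 (-0.01 to 0.24).

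**Figure D2:**
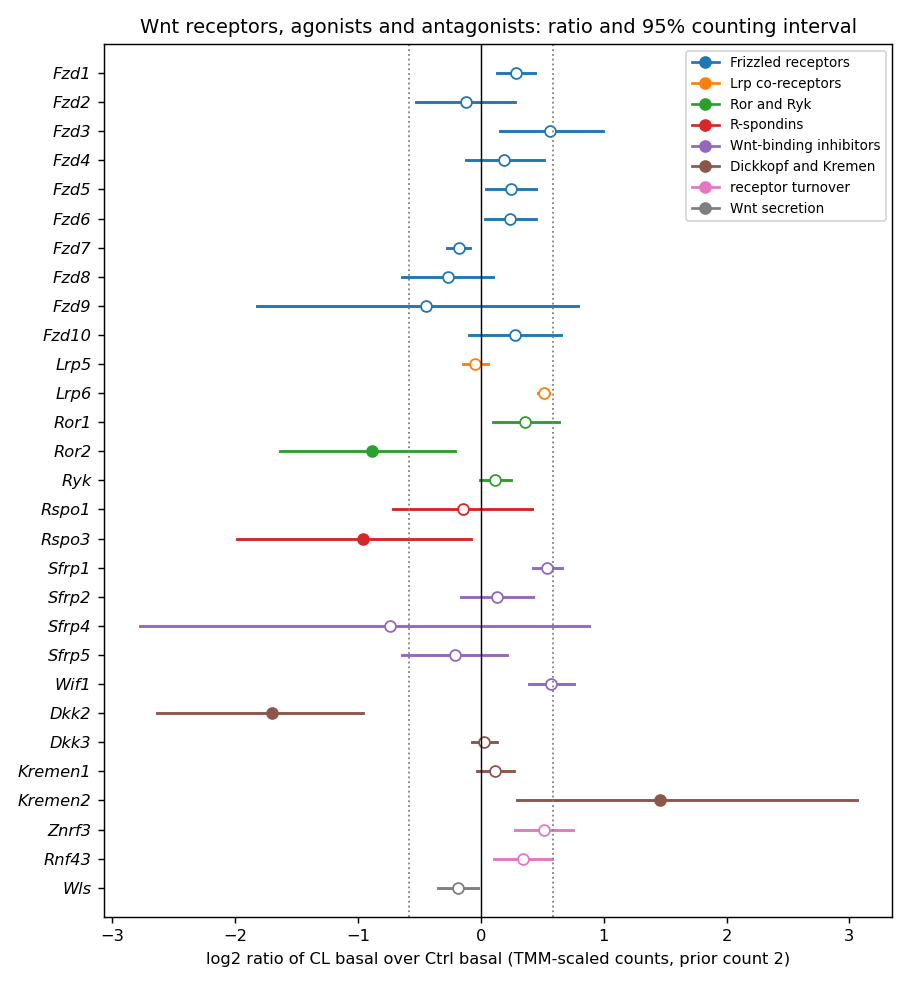
Log2 ratio of CL basal over Ctrl basal (points, 1 library per group) with 95% counting intervals (bars) for the 29 genes with at least 20 counts, coloured by role; filled points are called, dotted lines mark 1.5-fold. *Dkk2*, *Rspo3* and *Ror2* lie left of the dotted line with intervals below 0, *Kremen2* lies right of it, and 10 further intervals lie above 0 with their points inside the lines. Of the 29 intervals 11 lie above 0 and 5 below it, against 3231 and 3018 for all 17356 tested genes. With the assumed variation of 0.2, each of the 10 further intervals held 0.

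R-spondins, the secreted agonists that act through *Lgr4*, *Lgr5* and *Lgr6*, had few counts. *Rspo1* (chromosome 4, 124986430 to 125009099), which hormone-sensing luminal cells are known to secrete, had 115 counts in Ctrl basal and 104 in CL basal, a ratio of -0.15 (-0.72 to 0.42). That interval holds equality and is wide. Of the luminal markers, 17 of 20 were called lower, and their part in the value of *Rspo1* was not tested. *Rspo3* (chromosome 10, 29452416 to 29535867), known from endothelial and stromal cells, had 62 and 31 counts. It was called lower, with a ratio of -0.96 (-1.99 to -0.08) whose upper bound nearly reached 0. Its call rested on few reads, and it was lost at 2-fold and with an assumed variation of 0.2. Endothelial markers stood at 18868 and 15482 summed counts and fibroblast markers at 12324 and 9819, with 1 of 10 and 4 of 12 called lower (0 and 1 with the assumed variation). Their part in the value of *Rspo3* was not tested. *Rspo2* and *Rspo4* had 0 counts in both libraries, which allows up to 0.0471 RPKM for *Rspo2* and 0.066 for *Rspo4* in either library (3 read pairs, or 6 counts). Of the receptors of R-spondins, *Lgr4* had 2010 and 2453 counts (ratio 0.28, 0.16 to 0.41), *Lgr5* 786 and 871 (0.14, -0.06 to 0.34) and *Lgr6* 674 and 956 (0.50, 0.30 to 0.71), and none of them was called. Per length, *Lgr4* stood at 8.9 and 10.8 RPKM, *Lgr5* at 2.0 and 2.2, and *Lgr6* at 2.6 and 3.6. *Rspo1* stood at 1.55 and 1.40 RPKM, and *Rspo3* at 0.523 and 0.261.

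The ligases that R-spondins hold back had similar ratios. *Znrf3* (chromosome 11, 5276324 to 5444847) had 518 counts in Ctrl basal and 741 in CL basal, a ratio of 0.51 (0.28 to 0.75). *Rnf43* (chromosome 11, 87662722 to 87735539) had 529 and 673 counts, a ratio of 0.34 (0.11 to 0.58). Both intervals lay above equality and neither gene reached 1.5-fold. Their levels per length met within counting error in each library, 2.1 RPKM for *Rnf43* and 1.71 for *Znrf3* in Ctrl basal, and 2.67 and 2.44 in CL basal. Both genes are textbook targets of the pathway that they restrain. *Wls* (chromosome 3, 159839672 to 159938664), the membrane protein that carries Wnt ligands out of the cell, had 1345 and 1185 counts, a ratio of -0.19 (-0.35 to -0.02), and *Porcn*, the enzyme that attaches their lipid, had 48 and 38 counts (-0.33, -1.29 to 0.59).

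Inhibitors that bind Wnt proteins were led by *Sfrp1* and *Wif1*. Secreted Frizzled-related proteins carry a domain like the Wnt-binding part of Frizzled, and WIF1 binds Wnt through a domain of its own. *Sfrp1* (chromosome 8, 23411502 to 23449632) had 1995 counts in Ctrl basal and 2911 in CL basal, a ratio of 0.54 (0.42 to 0.66). *Wif1* (chromosome 10, 121033960 to 121100650) had 858 and 1280 counts, a ratio of 0.57 (0.39 to 0.75). Both were just inside the 1.5-fold limit, *Sfrp1* at 1.46-fold and *Wif1* at 1.49-fold, with intervals that crossed it. With the assumed variation of 0.2 the intervals were -0.27 to 1.35 for *Sfrp1* and -0.25 to 1.39 for *Wif1*, and both held equality. *Sfrp1* was 1.29 times *Wif1* per length in Ctrl basal and 1.26 times in CL basal, so their proportion was level (difference -0.03 on the log2 scale, -0.24 to 0.18).

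The other inhibitors of that kind showed no detectable difference. *Sfrp2* had 369 and 405 counts (ratio 0.13, -0.16 to 0.43), and it shares 347 of its 2153 exonic bases with *Gm26771* on the other strand (38 and 36 counts). *Sfrp5* had 204 and 176 counts (-0.21, -0.64 to 0.21). *Sfrp4* had 18 and 10 counts (-0.74, -2.78 to 0.88), so even a 1.5-fold difference either way lies within its interval. *Frzb*, with 4 and 10 counts, was under the limit of 20 counts. The 6 genes together had 3448 counts in Ctrl basal and 4792 in CL basal, a log2 ratio of 0.47 (0.38 to 0.56), of which *Sfrp1* held 59.5% over both libraries.

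The Dickkopf and Kremen genes held the largest difference in each direction. DKK1, DKK2 and DKK4 block the pathway by binding Lrp5 and Lrp6, and Kremen proteins bind DKK1 and DKK2 and help to remove the co-receptors. *Dkk2* (chromosome 3, 132085292 to 132180304) had 115 counts in Ctrl basal and 34 in CL basal. Its ratio was -1.70 (-2.63 to -0.96), a 3.26-fold lower value in CL basal, and the assumed variation of 0.2 left an interval of -2.84 to -0.62. Per length, *Dkk2* stood at 0.809 RPKM in Ctrl basal and 0.239 in CL basal, among the lower levels of the 29 tested genes. Pericyte markers (4 of 7 tested) and fibroblast markers (4 of 12) were lower by the 1.5-fold rule, and with the assumed variation 0 of 7 and 1 of 12 were. Their part in the value of *Dkk2* was not tested.

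*Kremen2* (chromosome 17, 23741200 to 23745829) had 14 counts in Ctrl basal and 42 in CL basal, a ratio of 1.46 (0.29 to 3.06). It reached the limit of 20 counts only through CL basal. It shares 196 of its 2116 exonic bases with *9530082P21Rik* on the other strand, which had 99 and 72 counts, so its value is uncertain. *Kremen1* (chromosome 11, 5191552 to 5261558), the more abundant receptor of the pair, had 1353 and 1472 counts and a ratio of 0.12 (-0.03 to 0.27). In Ctrl basal *Dkk2* stood above *Kremen2* per length beyond counting error, and in CL basal the order was turned, 0.516 RPKM for *Kremen2* and 0.239 for *Dkk2*, with intervals that met.

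*Dkk3* (chromosome 7, 112116017 to 112159057), a divergent member of the Dickkopf family, had 3091 and 3155 counts, a ratio of 0.03 (-0.08 to 0.13). Per length it stood at 24.0 RPKM in Ctrl basal and 24.4 in CL basal, between *Lrp6* and *Fzd7* in both. In Ctrl basal its interval (22.8 to 25.2) met those of *Lrp6* and *Fzd7*, so the order there lay within counting error. In CL basal it met neither. The level of *Dkk3* was 29.6 times that of *Dkk2* in Ctrl basal and 102.0 times in CL basal, a pair also picked after its values were seen. *Dkk1* had 4 and 2 counts and *Dkk4* had 2 and 1, too few for a ratio to be read.

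**Figure D3:**
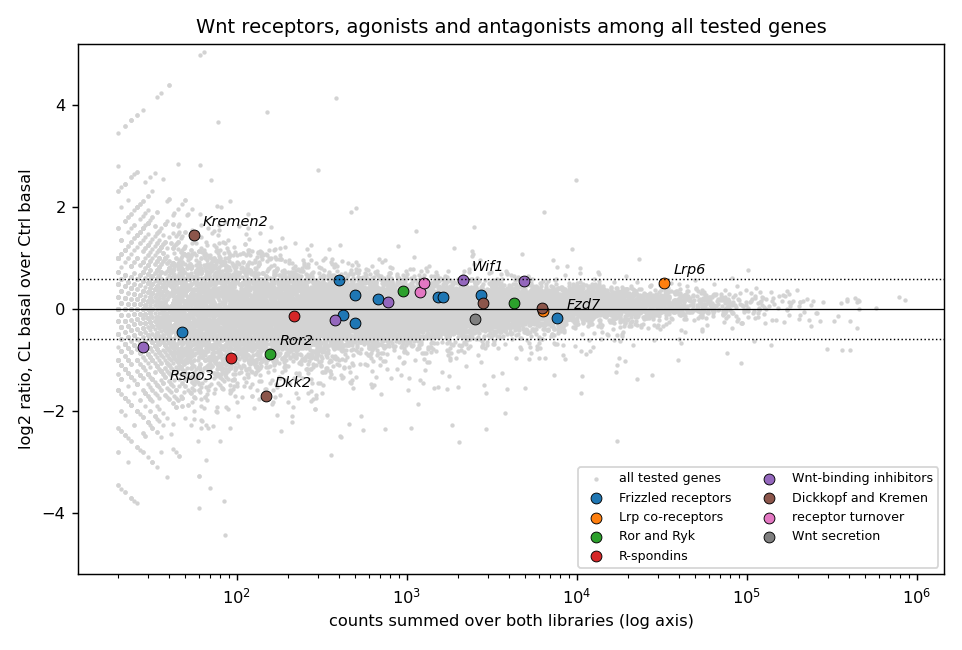
Log2 ratio of CL basal over Ctrl basal against counts summed over both libraries (log axis) for all 17356 tested genes (grey) and for the 29 tested Wnt receptors, agonists and antagonists (coloured by role), 1 library per group; dotted lines mark 1.5-fold. *Lrp6* stands farthest right of these genes at 0.51, while the called genes *Dkk2*, *Rspo3*, *Ror2* and *Kremen2* lie in the wide scatter at low counts.

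All 4 called genes had low counts, from 14 to 115 per library. Of the 4 tested genes with under 100 counts over both libraries, *Rspo3* was lower and *Kremen2* higher, where 9.12% of all such genes were lower and 4.55% higher. Of the 11 with at least 100 and under 1000, *Dkk2* and *Ror2* were lower, where 10.5% of all such genes were lower and 4.24% higher. Of all genes with at least 1000 and under 10000 counts, 2.29% were lower and 1.18% higher. The 13 Wnt receptors, agonists and antagonists in that upper class had a median log2 ratio of 0.24, with none called, against 0.03 for all 5592 genes of the class. In the lower classes the medians went the other way. The 4 genes with under 100 counts had a median of -0.595, against -0.118 for all such genes. The 11 with at least 100 and under 1000 had -0.125, against -0.074. Just inside the 1.5-fold limit stood *Wif1*, *Fzd3*, *Sfrp1*, *Lrp6* and *Znrf3* at 0.57, 0.56, 0.54, 0.51 and 0.51. The called gene nearest to the limit was *Ror2* at -0.88, with an interval that held the limit.

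**Figure D4:**
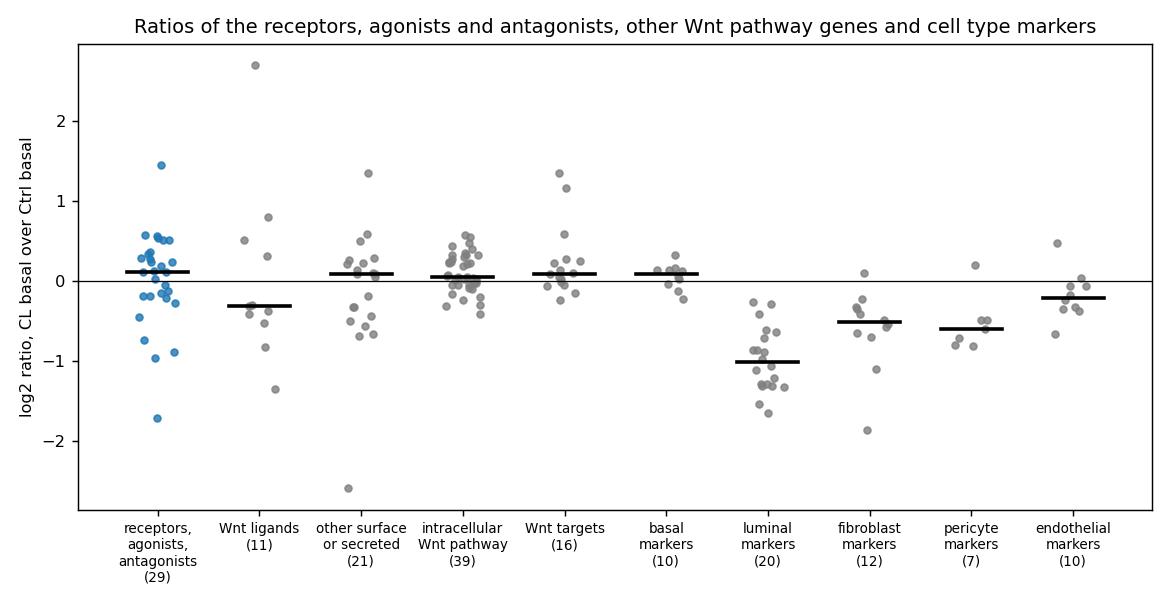
Log2 ratio of CL basal over Ctrl basal for the tested genes of each list (points, number of genes in brackets, 1 library per group), with the median as a bar. The receptors, agonists and antagonists center at 0.12, the Wnt ligands at -0.31, and luminal markers lie lowest, at -1.01.

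The rest of the pathway gives the setting. Of 19 Wnt ligands, 11 were tested, with a median ratio of -0.31. *Wnt4*, a progesterone-induced ligand of luminal cells, was called lower with 269 and 105 counts, a ratio of -1.34 (-1.85 to -0.89), and *Wnt10b* was called higher on 2 and 24 counts, a ratio of 2.70 (0.82 to 9.0), having reached the limit of 20 counts only through CL basal. Summed ligand counts were 7780 in Ctrl basal and 7519 in CL basal. Other surface or secreted Wnt regulators numbered 21 tested of 23 in the table, with a median of 0.09. *Adgra2*, a co-activator of Wnt7 signals (149 and 94 counts, ratio -0.66, -1.23 to -0.12), *Dkkl1* (94 and 58, -0.68, -1.42 to -0.002) and *Lypd6* (22 and 2, -2.59, -8.89 to -0.68) were called lower, and *Lypd6* reached the limit of 20 counts only through Ctrl basal. *Apcdd1*, an inhibitor and target of the pathway, was called higher on the limit itself, with 147 and 222 counts and a ratio of 0.58 (0.15 to 1.04). With 6.82% of all tested genes lower and 3.01% higher, these few calls say nothing of either list as a group. The calls of *Adgra2*, *Dkkl1* and *Apcdd1* were lost with the assumed variation of 0.2. None of 39 intracellular components was called, and their median was 0.05.

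Target genes were read from a list of 20, of which 9 also stand in the lists above. Of these 20, 16 were tested, 2 were called higher and none lower, with a median of 0.09, where 3.01% of all tested genes were higher and 6.82% lower, so nothing about targets as a group can be read from these calls. The called genes were *Apcdd1* and *Fgf20*, a growth factor (35 and 81 counts, ratio 1.16, 0.37 to 2.11), and only that of *Fgf20* was kept with the assumed variation. *Axin2*, the feedback scaffold most often used as a readout of Wnt signalling, had 765 counts in Ctrl basal and 931 in CL basal. Its ratio was 0.28 (0.08 to 0.48), which is above equality by counting error alone and was not called.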

How the data were processed

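Total RNA of sorted basal cells was made into libraries with a SMARTER mRNA kit and sequenced on an Illumina Hiseq X. The values deposited by the authors are unscaled counts of reads in each gene's exons, laid out as featureCounts writes them. The submitters' processing notes name GRCm38 (mm10); the aligner, annotation release and use of strand are not given in the sources used here. The table also holds the authors' ratio and log2 ratio of the 2 libraries, which were not used. Even values made up 67.9% (Ctrl basal) and 68.7% (CL basal) of all counts between 1 and 20, against 49.7% and 49.9% of those above 1000, so the mates of a pair appear to be counted separately. Counts were therefore halved for all intervals.

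Libraries were scaled by the trimmed mean of M-values (TMM; edgeR 4.0.16, R 4.3.3), with factors of 1.014 (Ctrl basal) and 0.9866 (CL basal). For log2 ratios (CL basal to Ctrl basal) a prior count of 2 was added, which understates ratios of low genes. Intervals of 95% were exact (Clopper-Pearson, on the share of a gene's halved counts in CL basal; scipy 1.17.1) and do not use the prior. Intervals of ratios between 2 genes used a normal approximation on the log scale. A count of 0 allows up to 3 read pairs, or 6 counts, which is 0.156 CPM in either library. No replicate model can be fitted to 1 library per group, so no p-value is given. RPKM divides by the exon length in the table, which can hold exons these cells do not use. The calculation was tested on simulated data.

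All 34 genes were to be named; of other Wnt genes, the called ones and *Axin2*, *Lgr4*, *Lgr5*, *Lgr6* and *Porcn*; of marker lists, sums, calls and a defining gene. The 34 genes and all lists were chosen with earlier results of these data known. *Adgra2* was listed under its older name too, and counted once.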

Additional observations from a re-analysis of the deposited data

How the results depend on the processing

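The 3 lower calls (*Dkk2*, *Ror2*, *Rspo3*) and the 1 higher call (*Kremen2*) were the same genes with scaling by total counts, DESeq2 1.42.0 size factors or TMM over genes that share no exonic bases, with a prior count of 0.5 or 5, with no filter on low counts, and with intervals from the counts as deposited. The number called higher was 3 with the upper quartile, which added *Fzd3* and *Wif1*, 2 once a smooth trend on mean expression was removed, which added *Fzd3*, and 0 with at least 100 counts, where *Kremen2* and *Rspo3* were no longer tested and 2 genes were called lower. An assumed variation of 0.2 left 1 gene called lower and the 2-fold threshold also left 1, in both cases *Dkk2*, and 2 with the trend removed, where *Rspo3* lost its call. The median ratio was lowest with total counts, at 0.08, and highest with the upper quartile, at 0.16, and that of all tested genes from -0.05 to 0.03 under the same scalings. Of 203 values of single genes under other scalings, priors or the trend removal, 202 lay within the main interval; that of *Lrp6* without the trend was 0.43. No called value changed sign. No paired analysis was possible because there was 1 library per group, and none could be left out in turn. Depth limits *Fzd9*, *Sfrp4*, *Rspo3* and *Kremen2*, each with under 100 counts over both libraries.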
